A study of Drosophila mojavensis with 172 samples.

Results

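A set of 100 transcripts, out of 14528 measured in the cactus-breeding fly Drosophila mojavensis, had its highest signal in both early and late pupae. The members were chosen by their stage means, each the equal-weight mean of the 4 combinations of population and diet, over 13 life stages. The margin of a transcript is the lower of its early and late pupal means minus its highest mean in the other 11 stages. The 100 members have the largest margins among transcripts whose early and late pupal means differ by under 1 log2 unit. Those stage means are therefore a description of the choice and carry no test. All members were on the array and none was lost to a filter, as no filter on low values was used.

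The flies were wild-type and came from Punta Prieta in Baja California (PP) or from Las Bocas in Sonora (LB). Both populations were reared on laboratory media prepared from organ pipe cactus (OP) or agria cactus (AG), in bottle cultures with a daily cycle of light and temperature. Each sample was hybridised to 1 of 172 single-colour arrays: 16 of eggs 6 hours old (E6), from mothers reared on the given medium, 14, 16 and 15 of first-, second- and third-instar larvae (L1, L2 and L3), 14 of early pupae (EP), 11 of late pupae (LP), and the rest of adult females. The adult ages were 0, 3, 6, 10, 14, 18 and 24 days, with 18, 15, 14, 12, 10, 9 and 6 arrays, and 2 further arrays held 4-day females. Adults were labelled as females while no label gives the sex of pupae, larvae or eggs, so sex and stage cannot be told apart in any comparison of pupae with adults. The labels do not date early or late pupae in hours, and do not say how many animals were pooled or whether replicates came from separate cultures.

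The pupal stage of a fly is the time of metamorphosis. Pulses of the steroid hormone ecdysone start it and time its steps, larval tissues break down, and adult structures such as eyes, wings, legs, flight muscles and gonads form from imaginal and progenitor cells. The transcript IDs of the array were not paired with gene names in the files, and 0 of the 14528 IDs occur in the annotation table used here. Members are therefore given by ID, without a role, and no sequence is shown.

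Margins ran from 1.14 to 3.30 with a median of 1.57 on the log2 scale. FBtr0175146 had the largest, 3.30, with stage means of 14.15 in late and 13.83 in early pupae and 10.52 in third-instar larvae, its next highest stage. FBtr0162458 followed with 3.13, from 12.64 in late and 12.76 in early pupae and 9.51 in first-instar larvae. Just inside the limit stood FBtr0162166 with 1.139 and FBtr0171659 with 1.138. FBtr0169267 with 1.134 and FBtr0171571 with 1.120 stood just outside. The edge of the set is thus gradual, and 910 transcripts with similar pupal means had a margin above 0.

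Averaged over the 100 members, the log2 signal of an array was 9.84 ± 0.15 in eggs (SD, n = 16), 10.93 ± 0.38 in first-instar (n = 14), 10.55 ± 0.40 in second-instar (n = 16) and 10.68 ± 0.36 in third-instar larvae (n = 15). It was 12.72 ± 0.74 in early pupae (n = 14) and 13.01 ± 1.07 in late pupae (n = 11). In adult females it was 9.89 ± 0.81 at 0 days (n = 18), 9.69 ± 0.62 at 3 days (n = 15) and between 9.43 and 9.57 at the 5 later ages. All but 3 of the adult arrays lay below the lowest pupal array, which had 10.99. These are bulk samples, in which fewer cells of a type and less RNA per cell cannot be told apart. First-instar larvae were the next highest stage for 87 members, third-instar larvae for 7, newly eclosed females for 3 and eggs, second-instar larvae and 3-day females for 1 each. The lowest stage was 6 days for 35 members, 14 days for 29, 24 days for 24, 18 days for 4, 10 days for 2, eggs for 5 and second-instar larvae for 1. In first-instar larvae the 4 arrays of Las Bocas on agria, between 10.28 and 10.60, lay below the 10 others, between 10.81 and 11.46. Those 4 arrays correlated better, over all transcripts, with a later instar of their own series than with the mean of the other first-instar groups.

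**Figure D1:**
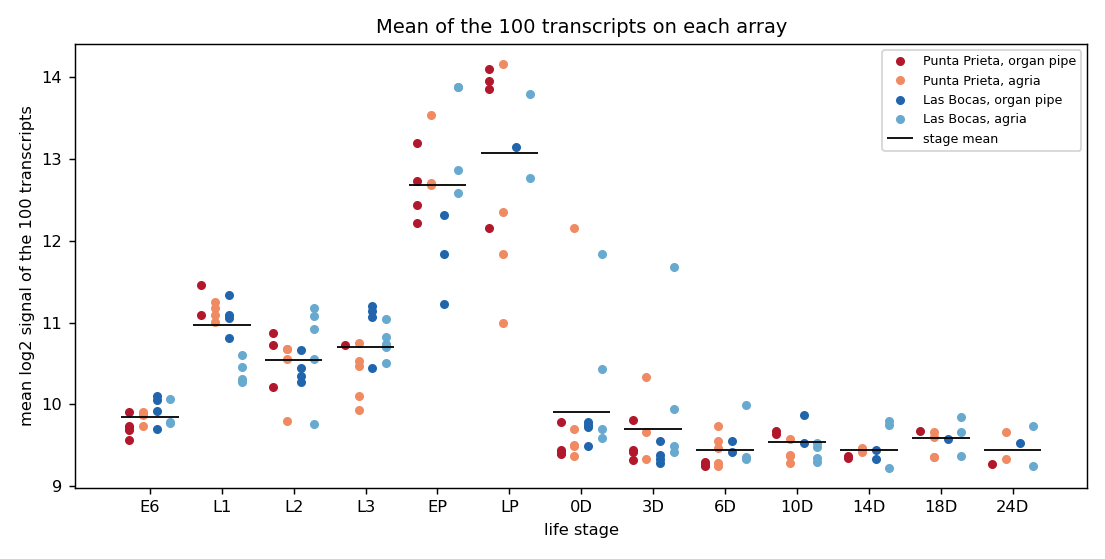
Mean log2 signal of the 100 transcripts (vertical axis) on each array of 13 life stages (horizontal axis), with colours for population and diet and a black line for the stage mean of the 4 groups. Pupal arrays lie between 10.99 and 14.16, and 3 arrays of 0-day and 3-day females lie at 11.85, 12.16 and 11.68, apart from the other adult arrays.

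The 2 arrays of 4-day females played no part in the choice. The members averaged 9.49 on the organ pipe array, with a range of 7.82 to 11.56, and 9.76 on the agria array, with a range of 8.28 to 11.66. All 100 lay more than 1 log2 unit below their lower pupal mean on each of these arrays, as did 18.2% and 10.9% of all transcripts. The pupal means of this count were used in the choice, so only the adult side of it is independent.

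Choosing 100 transcripts by the same rule from 3 of the 4 series and reading the margin in the series left out gave the same pattern. Of the transcripts chosen without Punta Prieta on organ pipe, 100 had a margin above 0 in that series, with a median of 1.27, against 4.64% of all transcripts. Without Punta Prieta on agria 98 did (median 0.85, background 5.31%), without Las Bocas on organ pipe 97 (median 0.56, background 3.53%) and without Las Bocas on agria 100 (median 2.16, background 8.18%). These choices shared 92, 75, 88 and 87 transcripts with the members. Of the members themselves, 98 had a margin above 0 within each of the 4 series, as did 2.08% of all transcripts, which the choice itself favours.

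Several arrays have to be named before the pupal results. Late Punta Prieta pupae on agria differed widely among themselves: replicate 2 correlated better with early pupae of its series (r = 0.92 over all transcripts) than with the other late pupal groups (r = 0.74), and replicate 3 better with first-instar larvae (0.93 against 0.59). Of early pupae, replicate 1 of Las Bocas on organ pipe correlated with first-instar larvae of its series at 0.93 and with the other early pupal groups at 0.90. An array is said here to resemble another stage where that correlation is higher by over 0.05. This holds for 14 arrays of the series, among them the 2 late arrays above but not this early one. Late Las Bocas pupae on organ pipe had 1 array. Whole-table array medians of all 172 arrays lay between 10.96 and 11.48, a far narrower range than that of the members in pupae. The SD over all transcripts of an array ran from 1.2802 to 1.7687. In late Punta Prieta pupae on agria it was 1.2802, 1.4305, 1.3363 and 1.5967, the order of the member means given below. In early Punta Prieta pupae on organ pipe, replicate 1 had 1.4188 and replicate 4, with a higher member mean, 1.4019. The share of array SD in the members' movement was not tested.

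Within pupal groups the members moved up and down together. The mean of the 100 members was 14.10, 12.16, 13.95 and 13.86 in the late pupae of Punta Prieta on organ pipe, and 10.99, 12.35, 11.84 and 14.16 in those of Punta Prieta on agria. It was 13.15 on the late array of Las Bocas on organ pipe, and 12.77 and 13.80 in those of Las Bocas on agria. Replicates of 1 group thus spread widely, above all in Punta Prieta on agria, where the lowest array lay near the first-instar level.

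In early pupae the mean was 12.22, 12.74, 12.44 and 13.20 in Punta Prieta on organ pipe, and 13.54, 12.68 and 12.71 in Punta Prieta on agria. It was 11.23, 11.83 and 12.31 in Las Bocas on organ pipe, and 12.59, 13.88, 13.88 and 12.87 in Las Bocas on agria. The 3 early arrays of Las Bocas on organ pipe lay below all 4 of Las Bocas on agria.

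Around the group means of the 25 pupal arrays, of which the single late array of Las Bocas on organ pipe has no deviation, 87.1% of the members' variance lay on 1 component, against 45.4% for all transcripts on the same arrays. A list of the 100 other transcripts with the largest early pupal margin had 52.1%, and the corresponding late pupal list 42.3%. The median correlation between pairs of members over these 25 arrays was 0.88 (Pearson) and 0.85 (Spearman), and 0.81 by both measures without the 2 arrays farthest from the median. In the early and late pupal lists the median Pearson correlation was 0.44 and 0.25. The movement was not confined to the members. A correlation above 0.8 with the mean of the members was reached by 947 of the 14428 other transcripts (6.56%), and 467 lay below -0.8. It was reached by 95 members, whose own values are part of that mean, by 17 transcripts of the late pupal list and by 0 of the early one. These are descriptions: the arrays share their groups and the members were chosen on them, so no test applies. The shared movement was also present outside pupae, with 68.8% on 1 component in 45 larval arrays, against 49.5% for all transcripts.

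The members' spread within pupal groups was large. Their pooled SD had a median of 0.88 in pupae (range 0.42 to 1.55), against 0.47 for all transcripts, and 75 of the 100 members lay above the 90th percentile of all transcripts. Over all groups of the series the members' pooled SD had a median of 0.59. FBtr0172755 spread most, with 13.47, 8.99, 12.69 and 12.92 in late pupae of Punta Prieta on organ pipe and 8.26, 10.97, 9.27 and 13.69 in those on agria. FBtr0174111 was next, with 13.69, 10.69, 13.44 and 13.36 on organ pipe and 9.55, 10.51, 9.66 and 13.58 on agria. In both transcripts the low and the high arrays were those that were low and high in the mean of all members.

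The 2 members with the largest margins also varied widely between replicates, though not always in the order of the mean of all members. FBtr0175146 had 14.75, 13.80, 14.83 and 14.66 in late Punta Prieta pupae on organ pipe and 11.77, 13.32, 13.44 and 14.65 in those on agria. In late Las Bocas pupae it had 14.34 on organ pipe, and 14.15 and 14.74 on agria. In early pupae it had 14.19, 13.89, 13.68 and 14.26 in Punta Prieta on organ pipe, 14.62, 14.27 and 14.05 in Punta Prieta on agria, 10.48, 13.44 and 13.54 in Las Bocas on organ pipe, and 13.91, 14.84, 14.91 and 14.33 in Las Bocas on agria. The single early array at 10.48, which is near the larval level of this transcript (median 10.44 over 45 arrays), is the one slightly nearer to first-instar larvae.

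FBtr0162458 had 13.77, 12.08, 13.75 and 13.65 in late Punta Prieta pupae on organ pipe and 10.02, 11.76, 9.66 and 13.79 in those on agria. In early pupae it had 9.65, 12.18 and 12.71 in Las Bocas on organ pipe, and 13.10, 13.78, 13.96 and 12.95 in Las Bocas on agria. Its larval median was 9.30, so 1 early and 2 late arrays held it within 1 log2 unit of the larval level.

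A few members stood outside the shared movement. The correlation of a member with the sum of the other 99 over the 25 pupal arrays was above 0.9 for 80 members and below 0.7 for 4, and 3 of these 4 are described here, chosen after their values were seen. FBtr0161374, with a correlation of 0.17, had 14.48, 14.28, 14.16 and 13.86 in late Punta Prieta pupae on organ pipe and 12.65, 14.98, 12.34 and 14.06 in those on agria. FBtr0171878, with 0.43, kept a pooled SD of 0.42, the smallest of all members, and ranged from 12.84 to 14.45 over the 25 arrays. FBtr0170936, with 0.54, had the most negative difference of late from early pupae, -0.77, and FBtr0161374 followed with -0.60.

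**Figure D2:**
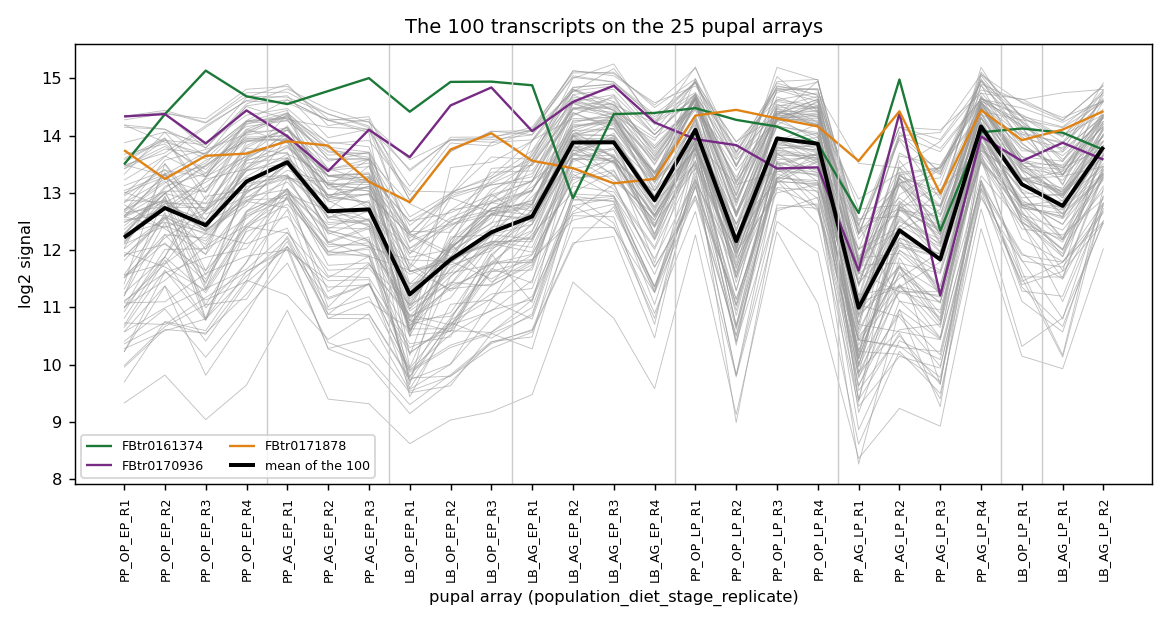
Log2 signal (vertical axis) of each of the 100 transcripts (grey lines) on the 25 pupal arrays (horizontal axis, grouped by stage, population and diet), with their mean in black and 3 transcripts of low correlation with the others in colour. The grey lines rise and fall together, with lows on PP_AG_LP_R1 and LB_OP_EP_R1 (means of 10.99 and 11.23), while FBtr0171878 stays between 12.84 and 14.45.

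The rule asks for similar early and late pupal means, but the 4 series differed in this respect. The late minus early difference averaged over the series was above 0 for 92 members, with a median of 0.40, and was largest in FBtr0174111 (0.96) and FBtr0161982 (0.90). Within series its median over members was 0.82 in Punta Prieta on organ pipe, -0.61 in Punta Prieta on agria, 1.35 in Las Bocas on organ pipe and -0.02 in Las Bocas on agria, where all transcripts had -0.02, 0.01, -0.16 and -0.12. It was above 0 for 98, 5, 98 and 47 members. The similarity of the early and late means is thus an average over series that ran in different directions, and the late value of Las Bocas on organ pipe is 1 array.

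**Figure D3:**
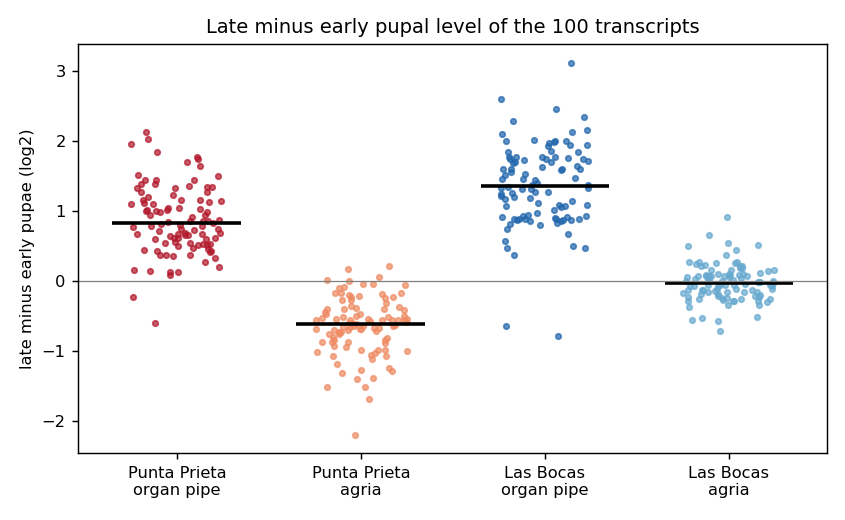
Late minus early pupal difference of group means on the log2 scale (vertical axis) for each of the 100 transcripts (points) in the 4 series (horizontal axis), with the median as a black line. Medians are 0.82, -0.61, 1.35 and -0.02 from left to right, so the series on organ pipe lie above those on agria.

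The rule did not use differences between diets or populations within a stage, and these were tested with limma over all transcripts. They are not fully independent of it: a group with few arrays adds more of its error to a stage mean, so where groups are unequal in size the choice favours members that are high in the smaller group. The SEs and p-values given here and below take the spread of a transcript from all 54 groups. For the members that pooled SD (median 0.59) was smaller than the one in pupae (median 0.88). In pupal comparisons the SEs therefore tend to be too small for the members, and the p-values with them. In early pupae, the log2 change on organ pipe against agria, averaged over both populations, was below 0 for 97 members, with a median of -0.93 against 0.04 for all transcripts. Of the members, 34 were called lower and none higher at an adjusted p under 0.05, where 1.88% of all transcripts were called and 1.38% were called lower. FBtr0175557 had 12.49, 12.72, 13.10 and 13.61 on organ pipe and 14.38, 13.42 and 13.52 on agria in Punta Prieta, and 9.95, 11.55 and 12.16 on organ pipe and 13.92, 14.30, 14.32 and 13.60 on agria in Las Bocas. The Las Bocas groups did not overlap, the Punta Prieta groups did, and the averaged change was -1.80 (SE 0.32, limma adjusted p = 5.40e-05).

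FBtr0169692 had 11.20, 12.48, 10.99 and 11.79 on organ pipe and 13.27, 12.12 and 12.38 on agria in Punta Prieta. In Las Bocas it had 9.58, 10.67 and 11.68 on organ pipe and 11.43, 14.01, 13.62 and 12.85 on agria. Its values overlapped between diets in both populations, and its averaged change was -1.65 (SE 0.27, limma adjusted p = 7.64e-06). With the spread taken from the early pupal arrays alone, limma called 0 members and 0 transcripts in all. The count of 34 fell to 11 without replicate 1 of Las Bocas on organ pipe or without replicate 1 of Punta Prieta on agria, to 16 without replicate 2 or without replicate 3 of Las Bocas on agria, to 19 without replicate 1 of Punta Prieta on organ pipe and to 22 without replicate 2 of Las Bocas on organ pipe, and was 60 without replicate 3 of Las Bocas on organ pipe. For these and all later fits with 1 array left out, the share of all transcripts called is not given. Such counts therefore cannot tell a change in the members from one over all transcripts.

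The lower values on organ pipe in early pupae were mostly those of Las Bocas. There, every organ pipe array lay below every agria array for 78 members, against 3.19% of all transcripts, no member had the opposite order (background 3.9%), and the median difference of group means was -1.55. In Punta Prieta this held for 2 members, against 7.48% of all transcripts, and for none in the opposite order (background 4.22%), with a median difference of -0.34. Subtracting the Las Bocas diet effect from the Punta Prieta one gave a median of 1.15 over members, against -0.04 over all transcripts, and a value above 0 for 98. None of these differences was called by limma (0.241% of all transcripts were). An unadjusted p under 0.05 was reached by 43 members and by 7.51% of all transcripts, and array weights called 86 members and 22.6% of all transcripts. The groups hold 3 or 4 arrays each, with 3 in Las Bocas on organ pipe and in Punta Prieta on agria. FBtr0162221 came closest from above, with a difference of 1.54 (SE 0.44, limma adjusted p = 0.135). FBtr0161374 did from below, with -0.98 (SE 0.58, limma adjusted p = 0.794). Without replicate 1 of Las Bocas on agria 2 members were called.

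In late pupae the diet comparison rests on Punta Prieta, with 4 arrays on each medium. All 100 members had a higher mean on organ pipe, with a median log2 change of 1.19 against 0.03 for all transcripts. Of the members 69 were called higher and none lower, but 53.2% of all transcripts were called in this comparison, and 25% were called higher. FBtr0171717 had 14.04, 12.44, 14.32 and 13.91 on organ pipe and 9.77, 11.62, 10.70 and 14.23 on agria, a change of 2.10 (SE 0.42, limma adjusted p = 2.23e-05). FBtr0167758 had 13.87, 11.59, 13.72 and 13.61 on organ pipe and 9.16, 11.12, 10.46 and 13.84 on agria, a change of 2.05 (SE 0.42, limma adjusted p = 3.54e-05). In both, 1 agria array was as high as the organ pipe arrays, and no member had groups without overlap (background 3.21% higher and 9.29% lower).

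The agria group of late Punta Prieta pupae holds the 2 arrays that resembled early pupae and first-instar larvae. Without the arrays that resembled another stage, 5 members were called higher, with 7.14% of all transcripts called, and the median over members was 0.91. The agria side of that median rests on replicates 1 and 4 alone, whose member means of 10.99 and 14.16 lie far apart. With the spread of late pupal arrays alone 0 were called, and 0 transcripts in all. Without replicate 1 on agria 27 were called, without replicate 3 on agria 45 and without replicate 3 on organ pipe 45. Over all fits with 1 array left out the count ran from 27 to 92, again without a share of all transcripts beside it.

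The diet effect of late pupae minus that of early pupae in Punta Prieta was above 0 for all 100 members, with a median of 1.48 against 0.01 for all transcripts. Of the members 53 were called, all above 0, and 45.4% of all transcripts were called, 21.4% above 0. FBtr0167758 had a difference of 3.11 (SE 0.62, limma adjusted p = 6.88e-05), with early values of 10.65, 11.65, 10.77 and 12.36 on organ pipe and 13.07, 11.98 and 12.23 on agria. FBtr0162458 had 2.93 (SE 0.57, limma adjusted p = 4.64e-05). Without the arrays that resembled another stage 16 members and 17.7% of all transcripts were called. When only pupal arrays gave the spread, 2 members and 16.8% of all transcripts were called. The count was 27 and 34 without replicates 1 and 3 of late pupae on agria, 28 without replicate 1 of early pupae on agria, 35 without replicate 3 of late pupae on organ pipe, 80 without replicate 2 of that group and 85 without replicate 4 of late pupae on agria.

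**Figure D4:**
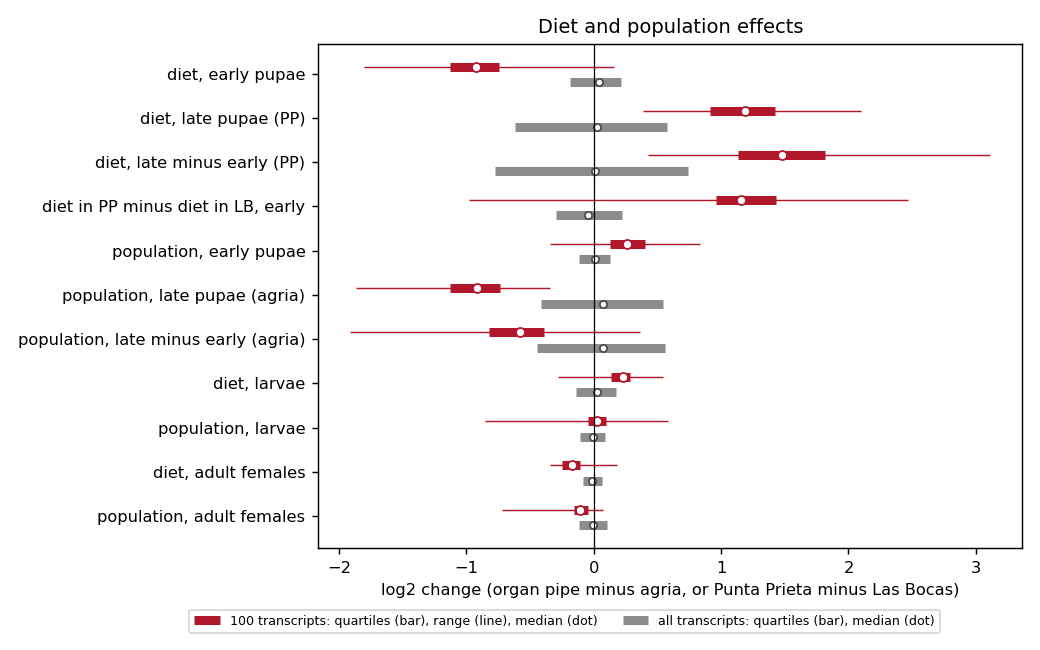
Log2 changes (horizontal axis) in 11 comparisons (rows), with the quartiles, range and median of the 100 transcripts in red and the quartiles and median of all 14528 transcripts in grey. PP is Punta Prieta and LB Las Bocas. In pupae the red medians lie at -0.93, 1.19, 1.48, 1.15, 0.26, -0.92 and -0.58 from top to bottom, and in larvae and adults within 0.23 of 0.

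Population effects were smaller when averaged over both diets, in early pupae, or rested on fewer arrays, in late pupae. In early pupae the change of Punta Prieta against Las Bocas had a median of 0.26 over members, against 0.01 over all transcripts, and limma called none of them (0.475% of all transcripts were called). An unadjusted p under 0.05 was reached by 4 members and by 6.35% of all transcripts, and array weights called 3 members and 9.93% of all transcripts. The change closest to the threshold was that of FBtr0175557, 0.75 (SE 0.32, limma adjusted p = 0.574), and FBtr0170936 had the smallest p among those below 0, with a change of -0.35 (SE 0.33, limma adjusted p = 1.00). The diets ran in opposite directions, which the average over both hides. On organ pipe the median difference of group means was 0.84 over members. There, every Punta Prieta array lay above every Las Bocas array for 31 members, against 1.94% of all transcripts, and for none in the opposite order (background 1.82%). On agria the median difference was -0.31, and no member had groups without overlap (background 7.45% higher and 3.93% lower).

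In late pupae on agria, 4 arrays of Punta Prieta were compared with 2 of Las Bocas. All 100 members had a lower mean in Punta Prieta, with a median of -0.92 against 0.07 over all transcripts. Of them 19 were called lower and none higher, and 21.2% of all transcripts were called, 8.3% lower. FBtr0162458 had 10.02, 11.76, 9.66 and 13.79 in Punta Prieta and 12.87 and 13.47 in Las Bocas, a change of -1.86 (SE 0.47, limma adjusted p = 0.00347). FBtr0170071 had 9.99, 12.32, 11.23 and 14.49 in Punta Prieta and 13.22 and 14.21 in Las Bocas, a change of -1.71 (SE 0.60, limma adjusted p = 0.0327). In both, the values overlapped between populations, as they did for all members (background 9.02% higher and 4.19% lower without overlap). Without the arrays that resembled another stage 0 members and 0.771% of all transcripts were called, and with the spread of late pupal arrays alone 0 of either. The choice of members on a high late pupal mean favours the Las Bocas group, which has fewer arrays, in the direction seen here, and its share in the difference was not tested. The count was 7, 10, 2 and 76 without replicates 1, 2, 3 and 4 of Punta Prieta, and 0 without replicate 2 of Las Bocas.

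On agria, the population effect of late pupae minus that of early pupae was below 0 for 96 members, with a median of -0.58 against 0.07 over all transcripts. Only FBtr0162458 was called, with -1.91 (SE 0.63, limma adjusted p = 0.0477), where 6.55% of all transcripts were, and 4.23% below 0. FBtr0167256 had the smallest p among members above 0, with 0.36 (SE 0.67, limma adjusted p = 0.762). The count became 0 without replicate 1, 2 or 4 of early Las Bocas pupae, without replicate 1, 2 or 3 of early Punta Prieta pupae, without replicate 2 of late Las Bocas pupae and without replicate 1 or 3 of late Punta Prieta pupae. It was 3 without replicate 1 of late Las Bocas pupae and 21 without replicate 4 of late Punta Prieta pupae.

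In larvae and adult females, where the members were at their lower levels, diet and population effects were small. In larvae the median change over members was 0.23 on organ pipe against agria (0.03 over all transcripts), and 95 members were above 0. In Punta Prieta against Las Bocas it was 0.02 (-0.004 over all transcripts), with 59 members above 0. By diet limma called 0 members (4.74% of all transcripts). An unadjusted p under 0.05 was reached by 5 members and by 26.8% of all transcripts, and array weights called 3 members and 23.4% of all transcripts. The smallest p above 0 was that of FBtr0171878, with 0.42 (SE 0.15, limma adjusted p = 0.0827), and below 0 that of FBtr0170936, with -0.28 (SE 0.20, limma adjusted p = 0.345). By population FBtr0168867 was called, with 11.23 ± 0.48 in Punta Prieta larvae (n = 19, range 10.16 to 11.99) and 12.20 ± 0.64 in Las Bocas larvae (n = 26, range 10.76 to 13.19), a change of -0.85 (SE 0.19, limma adjusted p = 0.00112). That is 1 of 100 members, against 5.49% of all transcripts (3.01% lower). The count was 0 without the arrays that resembled another stage. That fit left out every L1 array of Las Bocas on agria, so it did not repeat the same comparison of larvae. Its count therefore cannot show whether the call depends on the arrays left out.

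In adult females the median change over members was -0.17 by diet (-0.02 over all transcripts), and 92 members were below 0. By population it was -0.11 (-0.003 over all transcripts), with 87 members below 0. By diet limma called 0 members (1.84% of all transcripts). An unadjusted p under 0.05 was again reached by 5 members, and by 12.5% of all transcripts, and array weights called 3 members and 22.6% of all transcripts. The median by diet was -0.07 without the 3 adult arrays described next and -0.05 without these and a further one, all of them on agria. FBtr0161760 had the smallest p below 0, with a change of -0.34 (SE 0.12, limma adjusted p = 0.164). By population 2 members were called, both lower in Punta Prieta, against 15.1% of all transcripts (5.73% lower). FBtr0163640 had 9.70 ± 0.59 in Punta Prieta females (n = 45, range 9.15 to 12.93) and 10.35 ± 0.64 in Las Bocas females (n = 39, range 9.02 to 12.58), a change of -0.72 (SE 0.15, limma adjusted p = 0.000267). FBtr0163639 had 10.06 ± 0.72 in Punta Prieta and 10.55 ± 0.76 in Las Bocas females, a change of -0.47 (SE 0.17, limma adjusted p = 0.0410). Both populations overlapped, and 2 members were also called without these 3 or 4 arrays. Leaving out any 1 replicate number, from 1 to 5, left 1 called.

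On 3 arrays of young females reared on agria the members stood between the larval and the pupal stage means. These are replicate 2 of 0-day Punta Prieta females, replicate 3 of 0-day Las Bocas females and replicate 3 of 3-day Las Bocas females, with member means of 12.16, 11.85 and 11.68. The median member lay 0.50, 0.82 and 0.90 log2 units below its lower pupal mean on them. The other arrays of these groups had 9.37 to 9.70, 9.59 to 10.44 and 9.41 to 9.94. Against the mean of the other arrays of their group, the median deviation over members was 2.59, 1.95 and 2.03 log2 units, where that over all transcripts was -0.07, 0.05 and 0.01. The members higher by over 1 log2 unit numbered 97, 91 and 93, against 4.47%, 1.67% and 2.33% of all transcripts. Among the 100 transcripts with the largest deviation on each array, 57, 65 and 59 were members. Of the other 77 adult arrays that have a replicate, replicate 2 of the Punta Prieta females aged 3 days on agria had the largest median deviation. Its member mean was 10.34, against 9.34 and 9.66 on the other arrays of its group, with a median deviation of 0.75. On it 35 members were higher by over 1 log2 unit, against 0.709% of all transcripts, and 34 of the 100 largest deviations were of members.

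Single transcripts show the size of this. FBtr0175146 had 13.04 on the 0-day Punta Prieta array, and 9.24, 9.11, 9.36 and 8.85 on the other 4 arrays of that group. It had 13.05 on the 0-day Las Bocas array, and 9.28, 9.29 and 9.87 on the other 3. On the 3-day Las Bocas array it had 12.62, and 9.03, 9.65 and 9.59 on the other 3. Each of the 3 values lies far above the rest of its group and below both pupal means of this transcript.

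On the 3 arrays together, 89 of the 100 members were higher by over 1 log2 unit on each, against 1.45% of all transcripts. None of the early pupal list and 17 of the 100 transcripts in the late pupal list were. The median deviation of the early pupal list was -0.26, -0.24 and -0.43 on the 3 arrays and that of the late pupal list 0.30, 0.48 and 0.04. FBtr0161374, FBtr0171878 and FBtr0170936, 3 of the 4 members of low correlation in pupae, were among the 11 that were not higher by over 1 log2 unit on all 3, with deviations of -0.69, -0.23 and -0.75 for FBtr0161374, of -0.69, -0.41 and -0.36 for FBtr0171878 and of 0.54, 0.17 and 0.18 for FBtr0170936. FBtr0170055, the fourth, with a correlation of 0.63 in pupae, was higher by 1.94, 1.83 and 1.53. By their profile over all transcripts the 3 arrays resembled their own stage, with correlations of 0.95, 0.97 and 0.97. The best other stage of their series had 0.87, 0.89 and 0.95, so the 3-day array was hardly nearer to its own stage than to 10-day females. Few of all transcripts were raised on these arrays, so a correlation over all transcripts says little about those that were. What else differs between these arrays and their replicates was not tested, and the choice of members does not hinge on them, as it gave the same 100 transcripts without them, and also without the fourth array.

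**Figure D5:**
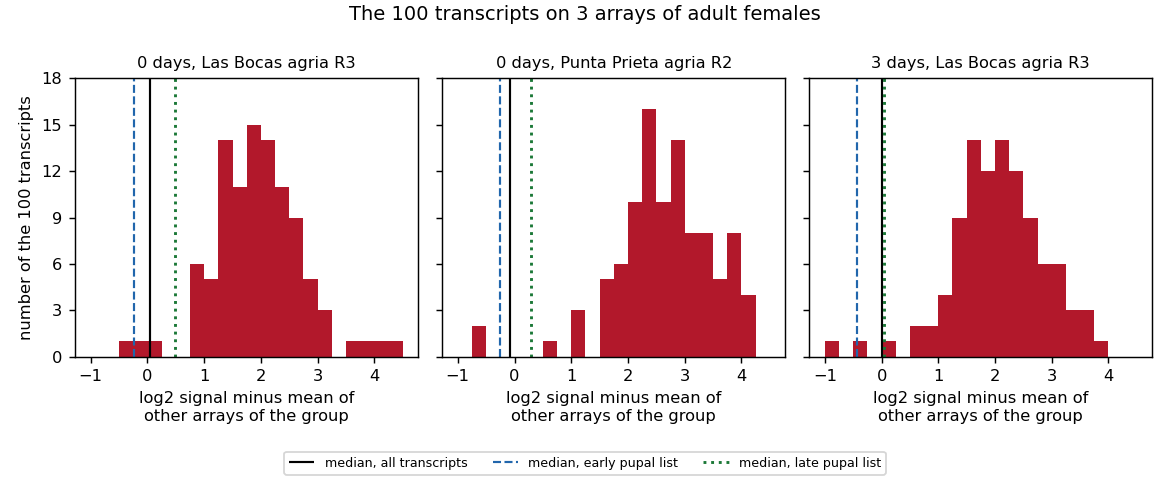
Deviation of the 100 transcripts from the mean of the other arrays of the same group (horizontal axis, log2 units; vertical axis, number of transcripts) on 3 arrays of adult females, with the medians of all transcripts and of the early and late pupal lists as vertical lines. The bulk of the 100 transcripts lies between 1 and 4, around medians of 1.95, 2.59 and 2.03 from left to right, while the medians of all transcripts are 0.05, -0.07 and 0.01.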

How the data were processed

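Cy3-labelled double-stranded cDNA, made from total RNA, was hybridised to single-colour NimbleGen arrays, per the labels' protocols. The authors deposited 1 log2 value for each of 14528 transcripts on 172 arrays, made with RMA (background correction, normalization and probe summary), per the submitters' processing notes. The RMA version, and over which arrays it was run, is not given in the sources used here. Precision is limited by the number of arrays, and signals are not compared between transcripts.

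Members and lists were chosen with earlier results of these data known. A limma model (lmFit and eBayes, version 3.58.1, R 4.3.3) was fitted to the deposited values of all transcripts with 1 mean for each of 54 groups (118 residual degrees of freedom). P-values were adjusted by Benjamini-Hochberg over all transcripts, with a call at an adjusted p under 0.05. Nothing in the labels says that replicates are separate cultures: p-values then reflect only how far these samples spread, possibly for technical reasons. The fit was run on simulated data with independent noise and, for each transcript, the same SD in all groups. The members' spread was larger in pupae and shared between members, so that run cannot judge the calls in pupae. Transcripts were named by margin, late minus early difference, spread and, in each comparison, the 2 largest called changes in each direction or else the smallest p. The 2 members with the highest mean signal, FBtr0169339 and FBtr0169342, fell under this rule too and are not discussed, as signals of different transcripts are not comparable. Planned lists of gene products were not run, as no ID was paired with a product. Slide and scan were not known here and were not fitted. The titles set the groups, also for 1 array of Las Bocas on agria titled 14 days whose life-stage label says 10 days. Of all pupal pairs of arrays with the same replicate number, 7 of 27 had deviations from their group means that correlated above 0.1, so the numbers were not taken to pair the samples.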

Additional observations from a re-analysis of the deposited data

Results flagged for a closer look

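Among groups of 4 or more arrays, 4 had 1 array whose mean over the 100 members lay far from the rest of its group by Dixon's test, of 28 such groups tested, where chance gives about 1 in 20. Among newly eclosed (0-day) females from Punta Prieta these were replicate 5 on organ pipe, with 9.78, and replicate 2 on agria, with 12.16. The others were replicate 2 of late Punta Prieta pupae on organ pipe, with 12.16, and replicate 1 of second-instar Punta Prieta larvae on agria, with 9.80. The other 4 newly eclosed arrays of Punta Prieta on organ pipe lay between 9.40 and 9.45, so that gap is small in log2 units.

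The difference of the diet effect between late and early Punta Prieta pupae was called for 53 members, all above 0. Of all transcripts 45.4% were called, a share not far below, and 21.4% above 0. With the spread of pupal arrays alone it was called for 2 members and 16.8% of all transcripts. Without the arrays that resembled another stage it was called for 16 members and 17.7% of all transcripts. The difference of the population effect on agria between late and early pupae was called for 1 member, below the 6.55% of all transcripts.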

How the results depend on the processing

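The choice of members kept 99 of 100 after centring array medians, 90 after quantile normalization, 92 without the 14 arrays nearer another stage by over 0.05 in correlation, 93 to 99 when any 1 pupal array was left out, and 100 without the 3, or 4, young female arrays (added after the data were seen). With pupal means within 0.5 of each other it kept 57, and within 2 it kept 88. The counts of called members moved far more. With the spread of a comparison's own stages alone, the diet counts were 0 in early pupae, 0 in late Punta Prieta pupae and 2 for their difference (0%, 0% and 16.8% of all transcripts). The population counts were 0 in late pupae on agria, 0 for late minus early and 1 in adults (0%, 0% and 29.6%). Without the 14 arrays, diet counts were 5 in late Punta Prieta pupae and 16 for the difference, and population counts 0 in late pupae, 0 for late minus early and 0 in larvae. The larval count is not from the same comparison as before, as the 14 arrays include every L1 array of Las Bocas on agria. With array weights, whose fit stopped before full convergence, 90 members were called for diet and 86 for the interaction in early pupae (43.7% and 22.6% of all transcripts), 3 for population in early pupae (9.93%), 1 for population in late pupae (1.64%), 11 for population in adults (39.8%), 4 for population in larvae (20.7%) and 3 each for diet in adults and larvae (22.6% and 23.4%). Without the dimmest 25% of transcripts, which leaves 59 members, counts were 9, 29 and 21 for diet in early pupae, late pupae and their difference, and 2 and 0 for population in late pupae and late minus early. Quantile normalization gave 32 and 3 for population in late pupae and late minus early, 2 for the interaction, 1 for population in adults and 1 for diet in larvae. A covariate for array spread gave 32 calls for the diet difference, 0 for the population difference and 1 for the interaction. Leaving out 1 pupal array at a time gave 11 to 60 for diet in early pupae, 27 to 92 for diet in late pupae, 27 to 85 for their difference, 0 to 76 for population in late pupae, 0 to 21 for late minus early and 0 to 2 for the interaction. Leaving out each replicate number in turn, with single arrays kept, gave 1 for population in adults and larvae and 0 for diet. The replicate block gave 35 for diet in early pupae, 70 in late pupae and 55 for their difference, and moved no count by over 1.5 times. The share of all transcripts called is not given for the fits from the dimmest 25% onward. Their counts therefore cannot tell a change in the members from one over all transcripts. Of single transcripts, FBtr0167256 turned to -0.22 with array weights, -0.48 without replicate 1 of late Las Bocas pupae on agria and -0.46 without replicate 4 of late Punta Prieta pupae on agria, FBtr0171659 turned to -0.011 in the adult population effect with array spread, and FBtr0170936 to 0.0715 in the larval diet effect with array weights, none of them called. Leaving out 1 array at a time gave FBtr0167256 a range of -0.48 to 1.203. The cause of these changes was not tested.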
